A study of Mus musculus with 32 samples.

Results

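The comparison described here set 4 arrays of cold-exposed Pparg control mice against 4 arrays of Pparg control mice kept at room temperature. The members were chosen by their sample titles, and they make up 8 of the 32 samples of the series. All 8 samples came from the strain C57Bl/6, and the labels describe them as preadipocyte RNA taken in vivo. Only the temperature treatment, cold or room temperature, distinguishes the groups in the labels. The series, whose title concerns Pparg, brown adipocyte inducibility and glycerol kinase, also holds 4 Pparg knockout samples at each temperature, used here as a second comparison of cold with room temperature, and cultured samples that were not used here. The labels do not give the depot, the age or sex, the temperature, the length of the cold exposure or how the knockout was made. They also do not say whether the 4 samples of a group are separate animals, so every p-value measures the spread among the arrays of a group and part of that spread may be technical.

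Brown adipocytes burn fatty acids to make heat. Cold reaches them through sympathetic nerves: noradrenaline binds the β-adrenergic receptors, cyclic AMP rises, lipases release fatty acids from lipid droplets, and Ucp1 lets protons leak across the inner mitochondrial membrane so that respiration yields heat. Over longer exposure the tissue is known to take up more fatty acids and glucose, to make more mitochondria and to switch on genes such as Ucp1, Dio2, Ppargc1a and Elovl3, while its preadipocytes and blood vessels can divide.

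Each value below is a level on a log2 scale: the background-subtracted signal of a probe relative to the 75th percentile of its array, so that 0 is the signal of a bright but ordinary probe. A gene is given by the probe with the highest mean level, a difference is cold minus room temperature with its standard error, and a gene rose or fell where limma's test over all genes gave an adjusted p under 0.05. The markers of the labelled cell type were present, since 12 of 12 preadipocyte and fibroblast markers were well above background on all 8 arrays. So were 10 of 10 markers of mature brown adipocytes, with Ucp1 near a level of 10, and 10 of 10 endothelial markers. Detection therefore does not settle the cell type. The summed linear level of the brown adipocyte markers was 4754.4 to 6383.4 at room temperature and 4707.7 to 4919.8 in the cold. For the preadipocyte and fibroblast markers it was 85.2 to 109.2 and 126.0 to 168.3. The 75th percentile ranged from 250.4 to 385.9 intensity units, and 20009 to 23763 probes were well above background.

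Temperature could not be told apart from the slide or the scan day. The room temperature arrays lay on slides 1 and 2 and were scanned at a resolution of 3 µm, and the cold arrays lay on slides 3 and 4 and were scanned on another day at 5 µm. The 8 detected E1A spike-in probes, synthetic RNA that the labelling procedure adds equally to each sample, differed by -0.15 to 1.38 between the groups after the scaling, with a mean of 0.87. Of the genes tested, 20.7% differed by more than the highest of these values. Of 2227 called genes with several tested probes, 1095 (49.2%) had every probe past the threshold in 1 direction, while 497 (22.3%) had probes past it in both directions. For these reasons the genes whose probes agreed, and the changes that held under 4 scalings, are described first in each group.

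**Figure D1:**
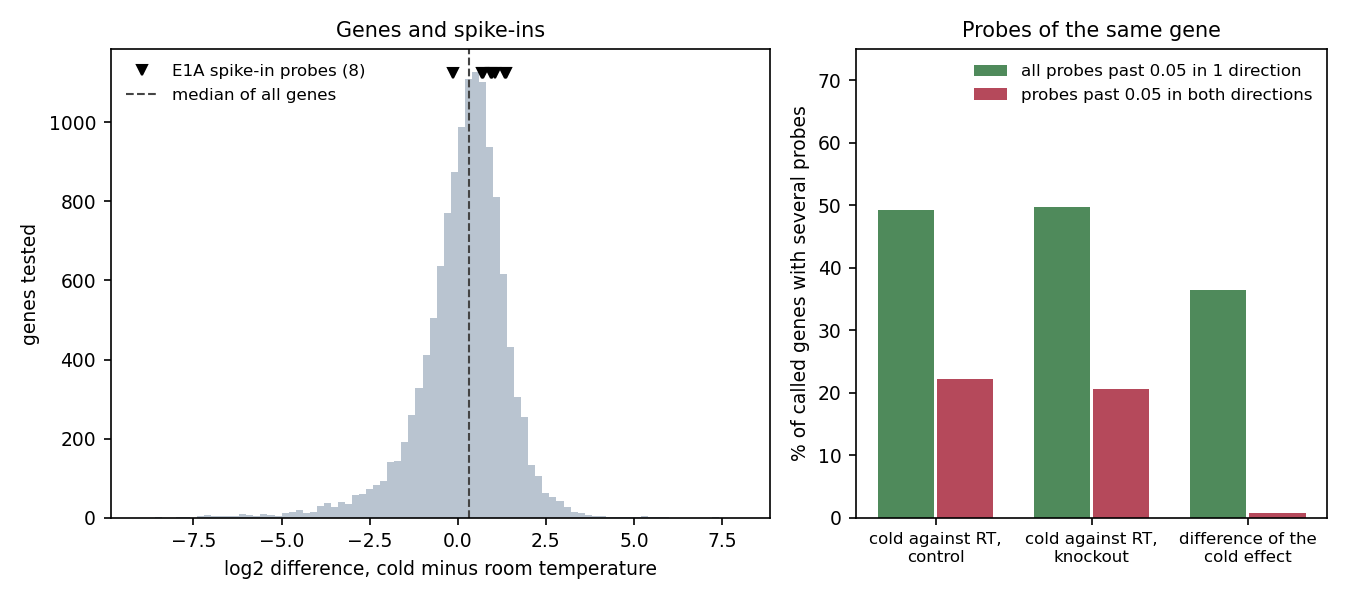
Left, histogram of the log2 difference between cold and room temperature over the 13124 genes tested in control mice, with the 8 detected spike-in probes as triangles and the median of all genes as a dashed line. Right, share of the called genes with several probes whose probes all passed 0.05 in 1 direction, or passed it in both directions; the share with both directions was 22.3% for control mice, 20.6% for knockout mice and 0.762% for the difference between the genotypes.

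Of 13124 genes tested, 8851 were called (67.4%): 5851 rose (44.6%) and 3000 fell (22.9%), and the groups did not overlap for 62.4%. The median difference over all genes was 0.31. The balance of rises and falls depended on the scaling: 7350 rose and 1976 fell when the arrays were centred on their medians, and 1277 rose (9.73%) and 6252 fell (47.6%) when they were centred on the spike-ins, where the median of all genes was -0.55. A gene counted as stable to scaling where it passed in 1 direction under the 75th percentile, quantile, median and spike-in scalings, which was so for 1273 genes that rose (9.70%) and 1971 that fell (15.0%). Among 3309 genes with several probes, every probe passed in 1 direction for 33.1%, as a rise for 25.0% and as a fall for 8.16%. Among the gene lists, neither the share that rose nor the share that fell exceeded that of all genes for secreted factors, adrenergic signalling, immediate-early genes, fatty acid oxidation, mitochondrial biogenesis, glucose use, cholesterol synthesis, the clock and lipid droplet proteins.

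Several genes of heat production in brown fat were lower in the arrays labelled cold. Ucp1, Elovl3, Gk, Fgf21 and Bmp8b, which brown fat is known to induce in the cold, fell in those arrays in control mice and also in knockout mice. The scan resolution differed between the 2 scan days, 3 µm for room temperature and 5 µm for the cold, and its part in these values was not tested. Whether the labels or other processing of the 2 scan days differ was not tested either, and every direction given here rests on the labels. Ucp1, the uncoupling protein, had levels of 10.10, 9.92, 10.31 and 10.64 at room temperature and 9.34, 9.15, 9.27 and 9.35 in the cold. All 4 cold arrays lay below all 4 room temperature arrays, and Ucp1 fell by 0.97 ± 0.16 (adjusted p = 0.000602; two-sided exact permutation p = 0.0286, the smallest that 4 arrays against 4 allow). Elovl3, an elongase of very long fatty acids that brown fat is known to induce in the cold, had levels of 6.73, 6.13, 6.03 and 5.99 at room temperature against 1.95, -0.20, -0.54 and 1.43. The groups were far apart, and the difference of -5.56 ± 0.53 was a 47.2-fold fall (adjusted p = 2.68e-05). Gk, the glycerol kinase that lets adipocytes re-esterify glycerol, had levels of 3.18, 2.70, 3.31 and 3.53 against 2.16, 1.71, -0.03 and 0.18, and fell by 2.17 ± 0.48 (adjusted p = 0.00357). The 2 lowest of the cold values came from slide 4. Ucp1, Elovl3 and Gk each fell under all 4 scalings and with each array left out, and each has a single probe. The exact permutation treats all arrays as exchangeable, although the arrays of each temperature lie on 2 slides.

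Fgf21, a hormone that brown fat can secrete, had levels of -0.74, -0.07, 2.29 and -1.49 at room temperature. Its levels in the cold were -4.16, -6.67, -6.44 and -6.79, and only 1 of these 4 arrays was well above background. The groups did not overlap, and the fitted difference was -6.01 ± 0.86 (adjusted p = 0.000273), with most of the cold signals near background. Dio2, the deiodinase that makes active thyroid hormone, had levels of 4.16, 3.32, 4.52 and 4.86 against 3.22, 5.05, 2.33 and 3.24. The groups overlapped, with the highest value of all in the cold, and the difference of -0.76 ± 0.55 was not called (adjusted p = 0.252; exact permutation p = 0.314). Ppargc1a, the coactivator of mitochondrial genes, had levels of 4.26, 3.43, 4.69 and 4.30 against 4.14, 4.91, 2.56 and 2.22, again with the 2 lowest values on slide 4. Its difference of -0.71 ± 0.58 was not called (adjusted p = 0.301), and its other probe gave 0.63. Without the cold arrays 1 and 2, Dio2 was called at -1.43 (adjusted p = 0.0229) and Ppargc1a at -1.78 (adjusted p = 0.00241), and under spike-in scaling both were called too, at -1.62 and -1.58.

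**Figure D2:**
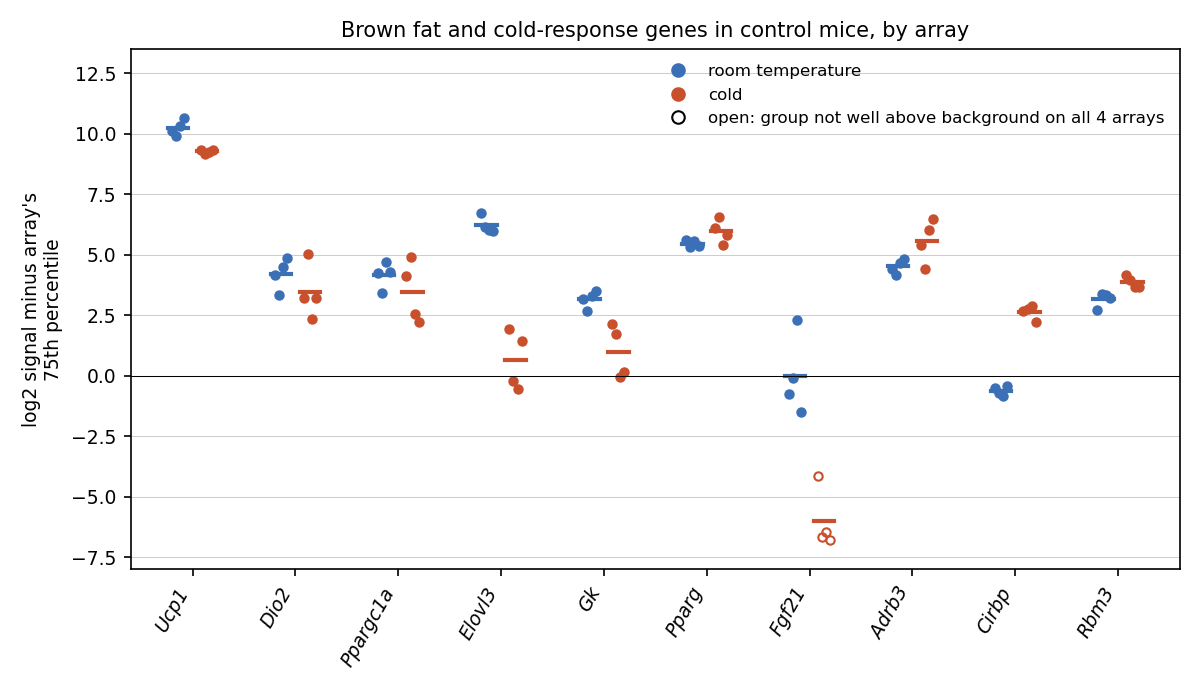
Level of 10 genes of brown fat and the cold response on each of the 8 arrays (log2 signal minus the array's 75th percentile), with room temperature in blue, cold in orange and a bar at the mean of 4 arrays. Elovl3 shows a wide gap downward (-5.56) and Cirbp upward (3.26), and the open symbols of Fgf21 in the cold mark signals near background.

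Pparg itself, the nuclear receptor that drives adipocyte genes, had levels of 5.60, 5.34, 5.55 and 5.36 at room temperature and 6.12, 6.56, 5.42 and 5.82 in the cold. The groups overlapped and the difference of 0.52 ± 0.22 was not called (adjusted p = 0.067; exact permutation p = 0.0857). Adrb3, the β3-adrenergic receptor, had levels of 4.41, 4.17, 4.66 and 4.85 against 5.40, 4.43, 6.04 and 6.47. It rose by 1.06 ± 0.40 (adjusted p = 0.0402) with 2 probes in the same direction (1.06 and 2.71), but the groups overlapped, the exact permutation p was 0.0857, and under spike-in scaling the difference was 0.19 with an adjusted p of 0.686.

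The cold-inducible RNA-binding proteins Cirbp and Rbm3 are made by mammalian cells when their temperature drops slightly. Cirbp was higher in the cold on its single tested probe, so no second probe bears on its rise. Cirbp had levels of -0.52, -0.70, -0.81 and -0.44 at room temperature and 2.68, 2.76, 2.90 and 2.23 in the cold. The groups were separated by over 2 log2 units, and Cirbp rose by 3.26 ± 0.16, a 9.57-fold change (adjusted p = 8.99e-07) that stood at 2.39 under spike-in scaling. Rbm3 had levels of 2.72, 3.36, 3.32 and 3.22 against 4.18, 3.97, 3.68 and 3.69, and rose by 0.72 ± 0.18 without overlap (adjusted p = 0.0064). Its 3 probes ranged from -0.73 to 0.93, and under spike-in scaling its difference was -0.15, so no direction held for Rbm3.

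The promoters of Cirbp and Dio2 are shown because each gene carries, in the 250 bases before its start, an element known to respond to cold or to cyclic AMP, the messenger of the cold signal. Cirbp's 5′ flank holds TCCCCGCC, an octamer described for its response to mild cold, and Dio2's holds TGACGTCA, the full cyclic AMP response element; capitals mark them, on a strand written in the direction of transcription. The sequences are RefSeq's for the mouse build GRCm38.p6, at chr10:80167589-80167838 on the plus strand for Cirbp (the first of 2 listed starts) and chr12:90739039-90739288 on the minus strand for Dio2.
Cirbp: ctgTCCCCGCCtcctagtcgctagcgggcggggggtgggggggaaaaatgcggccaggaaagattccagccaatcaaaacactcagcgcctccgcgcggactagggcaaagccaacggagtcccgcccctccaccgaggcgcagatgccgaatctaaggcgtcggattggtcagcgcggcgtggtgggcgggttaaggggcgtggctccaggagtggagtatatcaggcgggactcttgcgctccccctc
Dio2: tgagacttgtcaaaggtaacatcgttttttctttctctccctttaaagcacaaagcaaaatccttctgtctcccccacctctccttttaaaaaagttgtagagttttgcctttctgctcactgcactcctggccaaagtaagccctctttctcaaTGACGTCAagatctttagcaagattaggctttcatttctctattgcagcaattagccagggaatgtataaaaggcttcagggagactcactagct
Searched on both strands in that window of 27025 genes, the octamer was found in 5.37% and the cyclic AMP response element in 1.77%. Among genes that rose the shares were 9.41% and 3.22%, and among genes that fell 9.87% and 2.52%, against 9.31% and 2.88% of all genes tested. A match describes these letters only, and Dio2 with its element was not called while Cirbp rose.

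In the list of thermogenic genes, 9 of the 21 members passed as falls and 4 as rises, with a median of -0.67 against 0.31 for all genes. The falls that held under all 4 scalings were those of 7 genes, Elovl3, Pank1, Gk, Ppargc1b, Ucp1, Esrra and Esrrg, while Ntrk3 alone rose under all 4. Ppargc1b (-1.67), Esrra (-0.79) and Esrrg (-0.75, and -2.72 on its second probe) form a coactivator and receptor group that drives mitochondrial genes, and Pank1 (-2.43) makes coenzyme A. Ntrk3, the neurotrophin-3 receptor, had levels of 2.34, 2.14, 1.99 and 0.70 at room temperature against 4.36, 4.30, 4.69 and 4.48. All 4 of its probes rose, by 2.14 to 3.52. Cidea, Cox8b, Cox7a1 and Kcnk3, which mark mature brown adipocytes, were not called and lay between -0.20 and 0.32. Ppara (0.89), Ebf2 (0.69) and Otop1 (0.59) rose at the 75th percentile scaling but not under all 4.

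Among 18 secreted factors of brown fat 7 rose and 3 fell, with 4 and 6 under spike-in scaling. Bmp8b, a factor that raises the sensitivity of brown fat to noradrenaline, had levels of 3.71, 4.22, 4.61 and 4.26 against 0.75, -1.79, -0.35 and 1.90. It fell by 4.07 ± 0.68 without overlap (adjusted p = 0.000681). Angptl2 (2.81), Bmp7 (2.28), Angptl4 (1.88), and Adm rose under all 4 scalings. Adm, the vasodilator adrenomedullin, was not well above background on the room temperature arrays and was at least 3.58-fold higher in the cold (adjusted p = 3.05e-05).

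Of 23 adrenergic and cyclic AMP genes 10 rose and 3 fell, but 4 rose and 11 fell under spike-in scaling. Adcy5, an adenylyl cyclase, had levels of -3.38, -2.58, -2.53 and -2.79 at room temperature and 0.10, 0.76, -0.25 and 0.64 in the cold. Both probes rose, by 2.25 and 3.13 (adjusted p = 1.43e-05 for the latter). Adcy6, the other cyclase to rise (1.92), and the kinase Sik2 (1.52) also rose under all 4 scalings, though the second probe of Sik2 gave -5.50. Without the cold arrays 1 and 2 the list had 11 rises and 6 falls. Crtc2, a cyclic AMP-responsive coactivator of CREB, rose by 1.37 with both probes (1.37 and 1.61). Adcy3 (-0.57) and Adrb1 (-0.34) were not called, and Gpr3, a receptor that is active without ligand and that brown fat is known to induce in the cold, fell (-0.94) under all 4 scalings.

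The 12 largest rises and 12 largest falls among genes whose probes agreed and never overlapped between the groups spanned 2.85 to 5.60 upward and -3.57 to -7.31 downward. All 24 kept their direction and call under each of the 15 to 21 alternatives that tested them, spike-in scaling included. They were chosen from the same data for large differences, so the alternatives were not an independent test of them. No alternative separates temperature from slide and scan day. Hcar2 and Hcar1, receptors for β-hydroxybutyrate and lactate that restrain lipolysis in adipocytes, were among the rises. Hcar2 had levels of -3.97, -3.76, -4.60 and -6.10 against -1.65, -0.33, 0.78 and 0.65, a difference of 4.47 ± 0.65 (adjusted p = 0.000295) with 2.68 on the second probe. Hcar1 had -4.74, -4.01, -5.09 and -5.16 against -2.46, -1.60, -0.95 and -1.43, a difference of 3.14 ± 0.35 (adjusted p = 6.5e-05) with 2.92 on the second probe. Both receptors went from dim signals, well above background on 2 and 1 of the 4 room temperature arrays, to clear ones on every cold array.

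The other rises of this group had varied roles. Aqp5, a water channel, was the largest at 5.60 ± 0.79 (4.64 on its other probe, and 3 of 4 room temperature arrays well above background), from levels of -5.64, -3.90, -1.51 and -2.52 to 2.77, 1.96, 1.5 and 2.59. Flrt1, a membrane protein of the leucine-rich repeat class, rose by 4.86 ± 0.54 on the named probe and by 4.49 to 5.30 over 3 probes. Recql4, a DNA helicase, rose by 3.61 (well above background on 2 of 4 room temperature arrays), and Col20a1, a collagen, was at least 9.44-fold higher. Lime1, Chpf2, Vsig2, the snoRNA host Snhg16 and Sp3os rose by 2.85 to 3.43, and for Sp3os, antisense to Sp3, the files do not tell the strands apart.

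Among the falls, Hspa8, the constitutive heat-shock protein of the Hsp70 family, was the brightest, with levels of 8.24, 7.98, 8.15 and 8.31 at room temperature and 3.64, 4.17, 3.95 and 4.0 in the cold. The groups lay over 3 log2 units apart on this probe (-4.23 ± 0.14, adjusted p = 7.5e-08), but its other probes gave -1.62 and -0.81, so the size of the fall was not settled. Mrps14, of the mitochondrial ribosome, was still wider apart, at -7.31 on one probe and -0.52 on the other. Rheb, the small GTPase that activates mTORC1, had levels of 0.76, 0.62, 0.64 and 0.39 at room temperature and was not well above background in the cold, at least 35.8-fold lower (adjusted p = 2.8e-09), with both probes called. Rab3c, a vesicle GTPase, fell by 5.77 and 5.53 on its 2 probes.

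Bdh1, the mitochondrial enzyme that interconverts ketone bodies, had levels of -0.82, 0.21, 0.97 and 2.41 against -2.56, -4.24, -4.79 and -4.02, the last group well above background on 2 of 4 arrays. It fell by 4.59 ± 0.70 (adjusted p = 0.000387) and by 4.34 on the second probe. Bpnt1, Serpina1e, Slfn9, Rock1, Zfp930, Strap and Gmeb1 completed the falls, at -4.52 to -3.57. Serpina1e and Slfn9 belong to families of near-identical copies, so their probes may read several genes. For 3 of the 12 falls the weaker probe changed by less than 2-fold.

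**Figure D3:**
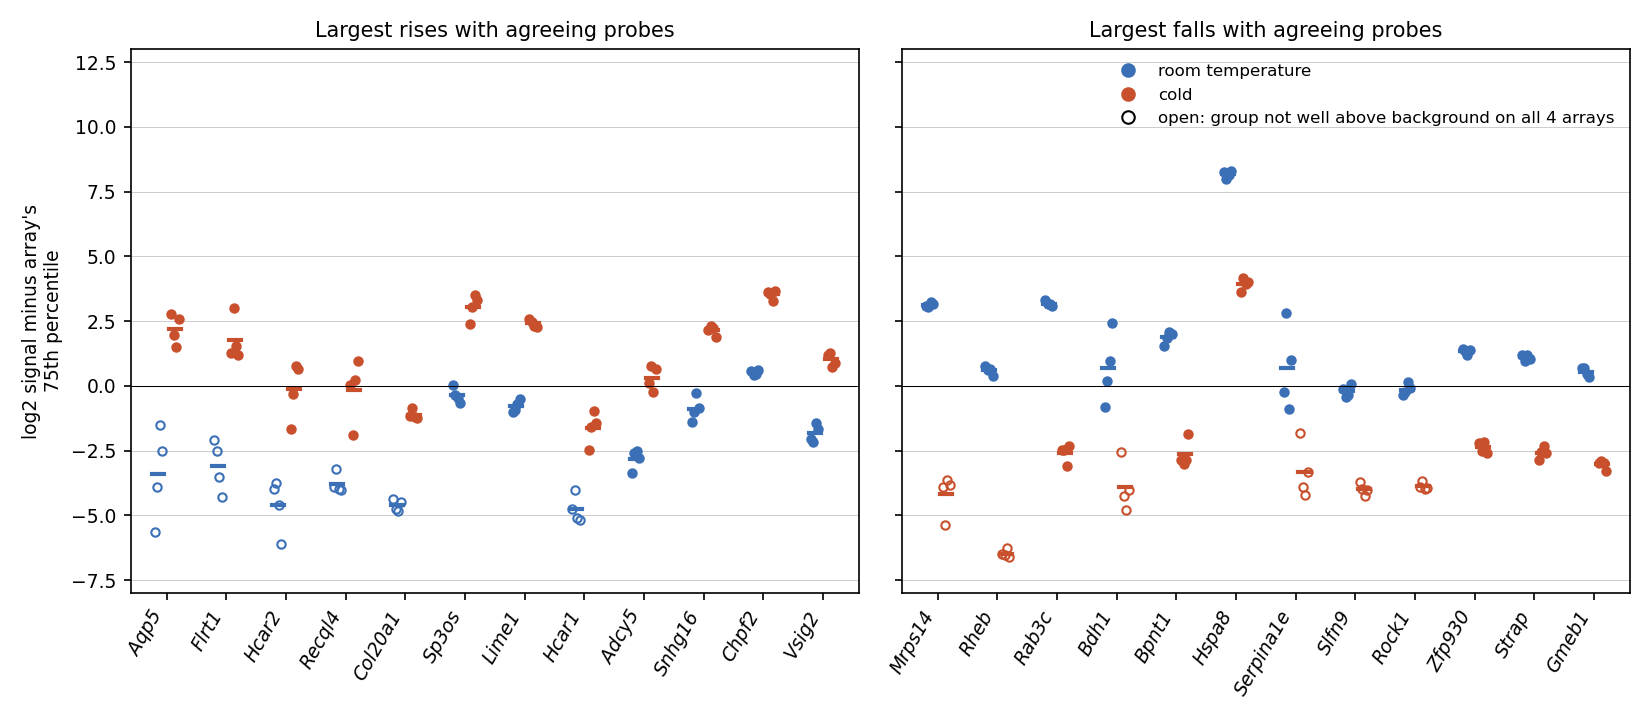
Levels on each array of the 24 genes with the largest rises (left) and falls (right) among genes whose probes all agreed, room temperature in blue and cold in orange, with a bar at each mean and open symbols where a group was not well above background on all 4 arrays. In each panel the groups do not overlap, and Mrps14 (-7.31) and Aqp5 (5.60) mark the widest gaps on the probe shown.

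Genes read by a single probe reached larger values. Dbt, of the branched-chain ketoacid dehydrogenase, was at least 99.6-fold lower in the cold, Pex14, a peroxisome import protein, at least 55.9-fold lower, and Rpe, of the pentose phosphate pathway, at least 49.2-fold lower, none of them well above background on any cold array. Rpl34-ps1 (-7.99) and Zcrb1 (-7.81) followed, well above background on 2 and 1 of the 4 cold arrays. The same 5 probes were called as falls in the knockout mice as well, most of them again not well above background there in the cold. No second probe bears on these sizes. Upward, Car12, a carbonic anhydrase, was at least 17.1-fold higher. B3galt2 rose by 5.38, with too few arrays well above background to be tested without the cold arrays 1 and 2. Lctl, which brown fat expresses strongly, rose by 5.35 ± 0.39 from levels of 0.81, 1.07, 0.71 and -0.17 to 5.34, 5.32, 6.34 and 6.82. Lctl shows 2 groups far apart, with a difference of 4.48 under spike-in scaling.

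Genes of fatty acid uptake and activation were lower in the cold: 12 of 20 fell and 4 rose (median -0.80), with 15 falls and 3 rises under spike-in scaling. Falls stable to scaling included those of the fatty acid translocase Cd36 (-1.69), the lipoprotein receptors Scarb1 (-2.73) and Vldlr (-1.12), the transporters Slc27a2 and Slc27a4, and the acyl-CoA synthetases Acsl5 (-1.17) and Acsl3. Acsl3 was not well above background in the cold and was at least 12.1-fold lower, while the second probe of Scarb1 gave 0.78. Fabp3, a fatty acid carrier of brown fat, had levels of 8.88, 8.63, 9.16 and 9.53 against 9.10, 8.18, 7.62 and 7.69. Both its probes fell (-0.90 and -1.31), though the groups overlapped through the first cold array and the call was lost under 12 of 21 alternatives. Lpl, the lipase that feeds the uptake, fell by 0.70. Apoe (2.62), Angptl4 (1.88), an inhibitor of Lpl, and Slc27a1 (1.53) rose under all 4 scalings.

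**Figure D4:**
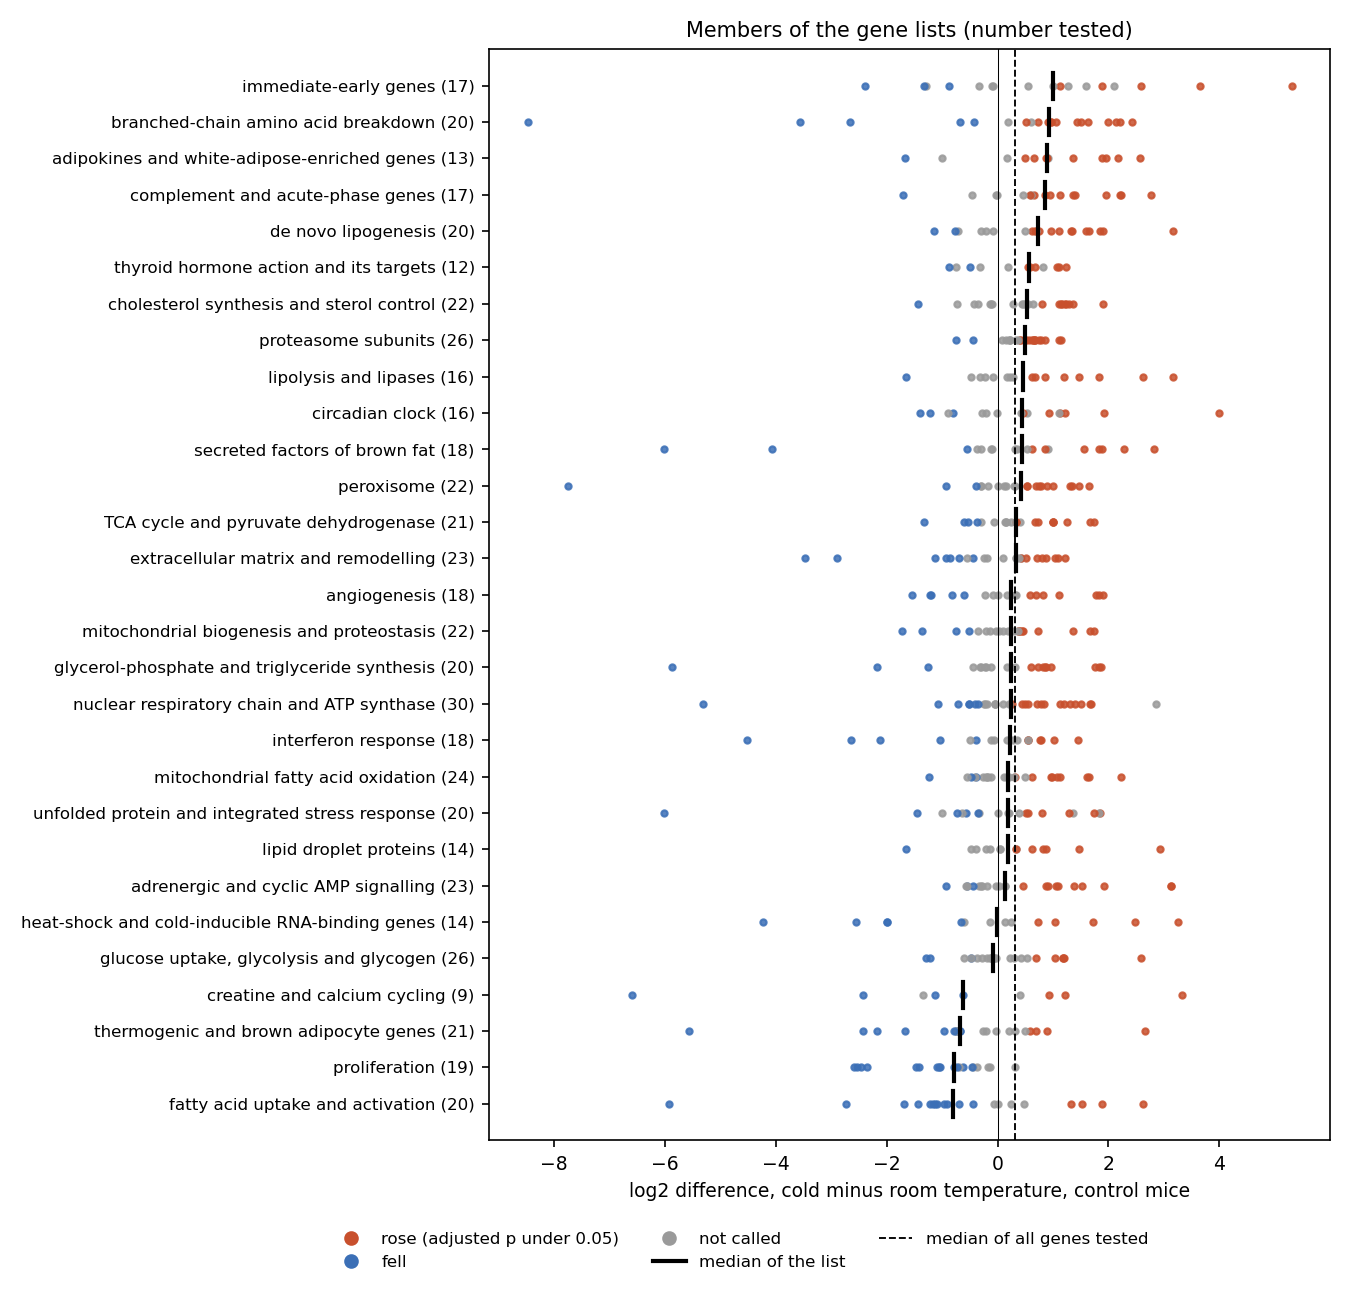
Log2 difference between cold and room temperature for each tested member of 29 gene lists (points; orange rose, blue fell, grey not called), ordered by the list's median (black bar); the dashed line is the median of all genes tested, 0.31. Fatty acid uptake, proliferation and thermogenic genes have the lowest medians, at -0.80, -0.79 and -0.67.

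Genes of fatty acid synthesis moved the other way: 12 of 20 rose and 2 fell (median 0.72), although under spike-in scaling 3 rose and 5 fell. Acss2, which makes acetyl-CoA from acetate, had levels of 4.40, 4.72, 4.12 and 3.70 at room temperature and 5.77, 5.16, 6.50 and 7.12 in the cold. The groups did not overlap, and both probes rose (1.90 and 2.68, adjusted p = 0.00286 for the former). Acaca, acetyl-CoA carboxylase, had levels of 7.76, 7.57, 7.50 and 6.51 against 8.90, 8.15, 9.34 and 9.51, with 3 probes at 1.33 to 2.01. Acly (1.32), Fasn (1.35), Mlxipl (1.60), the glucose-sensing factor, and Slc25a1 (1.85), the citrate carrier, rose as well, with Acly overlapping between the groups. Acss2, Slc25a1 and Pnpla3 (3.17) held under all 4 scalings, but the second probes of Pnpla3 and Mlxipl gave -0.72 and -2.33. Srebf1 (-0.08) was not called.

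Genes of lipolysis and of the lipid droplet split within the same pathway. Pnpla2, the triglyceride lipase that starts lipolysis, had levels of 7.55, 7.29, 7.69 and 7.62 against 5.96, 5.91, 5.84 and 5.86, and Lipe, the hormone-sensitive lipase that follows it, had 2.17, 2.48, 2.41 and 2.21 against 4.07, 3.94, 4.31 and 4.25. Pnpla2 fell by 1.65 ± 0.11 and Lipe rose by 1.83 ± 0.13, both without overlap, under all 4 scalings and on single probes. The droplet proteins Plin4 (2.93) and Plin1 (1.47) rose under all 4 scalings. Plin5, Cidec, Cidea and Plin2 were not called. In all, 8 of 16 lipolysis genes rose and 1 fell, and 6 of 14 droplet genes rose and 1 fell, against 44.6% and 22.9% of all genes. Under spike-in scaling 4 of the former rose and 6 fell, and 2 of the latter rose and 7 fell.

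Of 20 genes of glycerol-phosphate and triglyceride synthesis 9 rose and 3 fell, and 3 rose and 10 fell under spike-in scaling. Over all genes 44.6% rose and 22.9% fell, and 9.73% and 47.6% under spike-in scaling. Pcx, pyruvate carboxylase (1.83), and Pck1, the glyceroneogenic kinase (1.76), rose and Gk fell under all 4, so the 2 routes to glycerol phosphate differed in direction, while Gpd1 (-0.23) was not called. Mogat2 (1.87) was well above background on 2 of 4 room temperature arrays. Agpat1 fell by 5.88 on 1 probe, and the acyltransferases Dgat1 (0.85), Dgat2 (0.88), Agpat2 (0.73) and Gpat3 (0.96) rose at the 75th percentile scaling.

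Mitochondrial lists had medians close to that of all genes, 0.31, of which 44.6% rose and 22.9% fell. Of 24 fatty acid oxidation genes 9 rose and 3 fell (median 0.20), of 21 genes of the TCA cycle 10 rose and 4 fell (0.34), of 30 nuclear genes of the respiratory chain 14 rose and 7 fell (0.24) and of 22 genes of mitochondrial biogenesis 9 rose and 4 fell (0.25). Under spike-in scaling these groups had 15, 10, 16 and 11 falls with 3, 2, 4 and 2 rises. Rises stable to scaling included the short-chain dehydrogenase Acads (2.23), Hadha (1.61) of the trifunctional protein, the isocitrate dehydrogenase subunits Idh3g (1.74) and Idh3b (1.67) and the complex I subunits Ndufs1 (1.69), Ndufa9 (1.67) and Ndufv1 (1.39). Acads had levels of 2.25, 2.55, 2.78 and 2.81 against 4.62, 4.85, 4.86 and 4.97, well apart. Subunits of the pyruvate carrier fell, Mpc2 by 1.33 and Mpc1 on both its probes (-0.60 and -0.44). Cpt2 fell by 1.24 on one probe and stood at 1.19 on the other, and Atp5o fell by 5.31 on a single probe. Cox8a, with both probes up (0.44 and 0.74), stood at -0.43 under spike-in scaling. Among the biogenesis genes Polg, the mitochondrial DNA polymerase, rose by 1.36 and 1.83 on its 2 probes, Opa1 by 1.73 (0.24 on its second probe, not called) and Phb2 by 0.39 (-0.48 under spike-in scaling), while the chaperonin Hspe1 fell on 3 probes (-8.42 to -1.73).

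Breakdown of branched-chain amino acids, which cold-exposed brown fat is known to use as fuel, gave 13 rises and 5 falls among 20 genes (median 0.93), and 7 rises and 5 falls under spike-in scaling. The rises under all 4 scalings covered several steps: the transaminase Bcat2 (2.43), the dehydrogenase subunit Bckdha (1.63), Ivd (2.21), Acadsb (2.14), Pccb (2.0), Pcca (1.44) and Aldh6a1 (1.51 and 1.54 on 2 probes). Aldh6a1 had levels of 4.75, 4.36, 4.58 and 4.79 against 6.03, 6.27, 6.21 and 6.01. Against these stood the falls of Dbt, of the phosphatase Ppm1k (-3.56), which activates the dehydrogenase, and of the mitochondrial importer Slc25a44 (-2.67), whose second probe gave 0.03.

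Peroxisomal genes gave 11 rises and 3 falls of 22, against 44.6% and 22.9% of all genes, and 1 rise and 9 falls under spike-in scaling. Their largest rises were those of Ech1 (1.65), Abcd2 (1.48, well above background on 1 of 4 room temperature arrays) and Acaa1a (1.35). Of 26 genes of glucose uptake and glycogen 6 rose and 3 fell, and 1 rose and 17 fell under spike-in scaling, while without the cold arrays 1 and 2 it was 8 and 6. Pygb, a glycogen phosphorylase, rose by 2.58, Gys1 and Pfkfb3 rose on both probes (1.17 and 0.91, and 1.20 and 1.71), and Ugp2 fell on both (-1.29 and -0.78). Of 9 tested genes of creatine and calcium cycling 3 rose and 4 fell (1 and 5 under spike-in scaling): Alpl, the phosphatase of the creatine cycle, fell by 6.60 and Ckmt1 by 2.43, and Gamt, which makes creatine, rose on both probes (1.21 and 1.39). Atp2a1, the calcium pump of skeletal muscle, had levels of 2.84 and 3.24 on the cold arrays 1 and 2 but -1.63 and -1.51 on arrays 3 and 4.

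Several heat-shock genes were lower in the cold, while Cryab and Dnajb1 were higher. Hsph1, a co-chaperone, had levels of 3.20, 3.11, 3.48 and 2.95 against 1.02, 1.18, 1.11 and 1.49 and fell on both probes (-1.99 and -2.34). Hspa8, Hsp90aa1 (-2.56), Hsph1 and Hspb1 (-1.99) fell under all 4 scalings, Dnaja1 fell on both probes (-0.65 and -0.96), and Hspa1a (0.24) was not called. Cryab rose on both probes (1.72 and 2.35), Dnajb1 rose by 1.04, and with the cold-inducible genes Cirbp, Rbm3 and Srsf5 (2.48) the list had 5 rises and 5 falls of 14, and 2 and 9 under spike-in scaling. Summed over the list, the linear level was 445.4 to 563.2 at room temperature and 156.8 to 181.3 in the cold, in units of the 75th percentile, a sum that includes the Hspa8 probe with the largest fall, a size that its other probes did not share. Of 20 genes of the unfolded protein and integrated stress response 6 rose and 5 fell, against 44.6% and 22.9% of all genes. Under spike-in scaling 0 rose and 11 fell. Manf, secreted under stress of the endoplasmic reticulum, fell by 1.45 and Fgf21 fell as above, while Phgdh rose on both probes (1.85 and 1.91) and Ddit3 by 1.75, both highest on the cold array 1 and Ddit3 with overlapping groups. Without the cold arrays 1 and 2 neither was called (Phgdh 0.84, adjusted p = 0.146; Ddit3 1.18, adjusted p = 0.0581).

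Of 26 proteasome genes, whose subunits brown fat is known to raise together in the cold, 17 rose and 2 fell, by small amounts (median 0.49). Under spike-in scaling 0 rose and 7 fell (median -0.38). Psmc3 had levels of 6.50, 6.14, 6.31 and 6.23 against 6.83, 6.81, 6.59 and 7.04 and rose on both probes (0.52 and 0.50), without overlap, but stood at -0.35 under spike-in scaling. Psmd2 rose by 1.15, Psmc1 by 1.11 (with -1.08 on its second probe) and Psmb1 by 0.85 (-0.01 under spike-in scaling). Psmc5 (-0.74) fell under all 4 scalings.

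Of 16 clock genes 6 rose and 3 fell, with 2 and 7 under spike-in scaling, shares no higher than the 44.6% and 22.9% of all genes. Nr1d1, the repressor Rev-erb alpha, had levels of -1.67, -1.70, -2.07 and -2.11 at room temperature and 2.0, 2.52, 2.25 and 1.69 in the cold. It rose by 4.0 ± 0.20 without overlap (adjusted p = 7.99e-07). Dbp, which the same E-box factors drive, rose on both probes (1.92 and 1.71), and Nfil3, which binds Dbp's sites with the opposite effect, fell by 1.40. These 3 genes held under all 4 scalings. Per1 (1.13) and Per3 (1.21) rose and Clock (-0.81) and Hlf (-1.21) fell, while Arntl (-0.28) and Per2 (-0.90) were not called. The labels do not give the time of day of collection, and its part in these values was not tested.

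The promoters of Per1 and Bhlhe41, 2 clock genes that rose, each hold CACGTG, the E-box through which the clock's activators bind, shown in capitals in the 250 bases before the start (GRCm38.p6, RefSeq): chr11:69098699-69098948 on the plus strand for Per1, the first of 2 listed starts, and chr6:145865421-145865670 on the minus strand for Bhlhe41.
Per1: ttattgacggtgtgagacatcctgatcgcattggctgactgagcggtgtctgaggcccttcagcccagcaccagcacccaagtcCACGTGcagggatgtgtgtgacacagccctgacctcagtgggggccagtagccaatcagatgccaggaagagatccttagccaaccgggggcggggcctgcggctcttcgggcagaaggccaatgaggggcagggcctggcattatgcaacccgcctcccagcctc
Bhlhe41: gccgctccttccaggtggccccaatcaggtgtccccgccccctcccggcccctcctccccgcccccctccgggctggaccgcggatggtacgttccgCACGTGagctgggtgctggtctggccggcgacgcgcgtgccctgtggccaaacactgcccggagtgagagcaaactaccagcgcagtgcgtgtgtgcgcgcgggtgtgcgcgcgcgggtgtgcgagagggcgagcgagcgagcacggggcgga
The E-box, the same on both strands, was found in this window of 6.86% of all genes, 9.79% of genes that rose and 8.61% of genes that fell, against 9.63% of those tested. Of 13 tested clock genes with a listed promoter 3 held it, Per1, Bhlhe41 and Tef. Bhlhe41 rose on both probes, by 0.92 and 2.0, from levels of -3.03, -2.96, -3.44 and -3.68 to -1.84, -2.39, -2.52 and -2.68. Under spike-in scaling its difference was 0.06 and was not called.

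Immediate-early genes, which respond within minutes to signals such as noradrenaline, gave 5 rises and 3 falls of 17 (median 1.01) and 4 rises and 6 falls under spike-in scaling. Without the cold arrays 1 and 2 it was 8 rises and 3 falls of 16. Nr4a1, an orphan nuclear receptor induced by cyclic AMP, had levels of -0.51, -0.47, 1.71 and 1.16 against 2.63, 5.72, 7.71 and 7.02, a 39.4-fold rise (5.30 ± 1.05, adjusted p = 0.00187). Irf4, a factor that brown fat induces in the cold and in fasting, had -1.08, -1.71, -1.46 and -1.09 against 0.95, 1.19, 4.33 and 2.83, and rose by 3.66 ± 0.67 (adjusted p = 0.0012). Junb was not well above background at room temperature and was at least 4.58-fold higher in the cold. All 3 were higher on slide 4 than on slide 3, and all 3 rose under all 4 scalings. Fosl2 fell on both probes (-1.33 and -1.78), and Egr1 (2.11) and Nr4a2 (1.59) were not called.

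Of 19 tested proliferation genes 13 fell, the other 6 were not called, and the median was -0.79. Leaving out the cold arrays 1 and 2 left 10 falls and 1 rise. The falls under all 4 scalings were those of 9 genes of replication and mitosis, among them Mki67, Prc1, Tk1, Ccna2 (-2.36), Rrm2 (-1.47) and Cdc20 (-1.42). Mki67, the protein behind the Ki-67 stain of dividing cells, had levels of -1.62, -0.73, -0.98 and -0.31 at room temperature and -4.09, -3.14, -3.53 and -3.24 in the cold. The groups did not overlap and both probes fell, by 2.59 and 3.09 (adjusted p = 7.9e-05 for the former). Prc1 fell by 2.54 and was well above background on 2 of 4 cold arrays, Tk1 was well above on no cold array and at least 3.70-fold lower, and Ube2c fell by 0.73 and 0.93 on its probes.

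Matrix genes split, with 8 rises and 7 falls of 23, against 44.6% and 22.9% of all genes. Under spike-in scaling there were 0 rises and 11 falls. Leaving out the cold arrays 1 and 2 left 4 rises and 7 falls. Postn fell by 3.48, Col1a1 by 0.94, and Col5a2 was at least 2.40-fold lower, all stable to scaling. Sparc fell by 0.45 on one probe and 7.54 on the other, and Lox rose on both (0.80 and 0.60) but stood at -0.06 under spike-in scaling. Angiogenesis genes gave 7 rises and 5 falls of 18, near the shares of all genes, with 3 and 8 under spike-in scaling. Kdr, the main receptor of Vegfa, fell on both probes (-1.20 and -1.70) while Nos3 rose on both (1.77 and 2.23), Angpt1 rose by 1.90, and Vegfa (0.32) was not called.

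Adipokines and complement genes were mostly higher. Of 13 genes enriched in white fat 9 rose and 1 fell (median 0.89), with 4 rises and 2 falls under spike-in scaling. Resistin, Retn, had levels of 2.19, 3.78, 3.29 and 2.49 against 5.96, 5.62, 4.92 and 5.52 and rose on both probes (2.57 and 2.93, adjusted p = 0.00026 for the former). Adiponectin, Adipoq (1.88), Retnla (2.17) and adipsin, Cfd (1.95), also held under all 4 scalings, and the leptin gene Lep (0.17) was not called. Of 17 complement and acute-phase genes 11 rose and 1 fell (4 and 4 under spike-in scaling). C3, the central complement component, rose on both probes (1.13 and 1.10), C2 by 2.22, Serpina3c by 2.76 and Serpina3n by 2.20, the last well above background on 1 of 4 room temperature arrays and 1 of a family of near-identical genes. Of 18 interferon-response genes 6 rose and 5 fell (0 rises and 10 falls under spike-in scaling). Ifit1 was at least 6.80-fold lower, Ifi44 fell by 2.65 and Ifit2 by 2.12, while Ddx58, the sensor RIG-I, rose by 1.45. Of 12 tested genes of thyroid hormone action 6 rose and 2 fell, against 44.6% and 22.9% of all genes. Under spike-in scaling 0 rose and 5 fell. The receptor Thra rose on both probes (1.07 and 1.77). Rxra rose by 1.10 (0.37 on its second probe, not called) and Ncor1 by 1.24 (0.44 and, not called, 0.23 on its other probes). Thra, Rxra and Ncor1 lost their calls under spike-in scaling. Klf9, a target of the hormone, fell by 0.88 with overlapping groups.

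Markers of other cells were present, and in bulk RNA fewer cells of a type cannot be told apart from less RNA per cell. Skeletal muscle stood out on 2 arrays. Myh8, a muscle myosin, had levels of -5.37, -3.22, -5.24 and -4.54 at room temperature and 7.21, 7.67, -5.66 and 1.27 in the cold, so only the cold arrays 1 and 2, both on slide 3, were high, with array 4 between. The summed linear level of 15 muscle markers was 12.1 to 18.7 at room temperature and 20.1 to 622.5 in the cold. Of 9 tested, 4 rose (Tnnc2 5.67, Tnnt3 5.38, Myl1 1.27 and Mybpc2, at least 18.7-fold), with a median of 5.04, and without those 2 arrays 1 of 7 rose and the median was 0.82. Of the 8851 called genes, 8499 were still tested without the 2 arrays, and 7753 of these were called in the same direction. Among the genes named here, Tnnc2, Phgdh, Ddit3, Sparc, Ccl2, Des and Slc4a1 were no longer called. B3galt2, Cd3d and Krt19 were among those no longer tested, with too few arrays well above background.

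The remaining markers moved in both directions. Summed levels of endothelial markers were 57.3 to 79.3 at room temperature and 77.0 to 134.6 in the cold, with 3 of 10 up (Egfl7 1.88) and 5 down (Esam -4.71, Cdh5 -1.26), against 1 and 6 under spike-in scaling. For preadipocyte and fibroblast markers the sums were 85.2 to 109.2 and 126.0 to 168.3, with 4 of 12 up (Pi16 2.15, Dcn 1.06) and 4 down (Pdgfrb -0.92, Col1a1). Macrophage sums were 26.0 to 39.4 and 21.3 to 26.2, with Cd14 at 1.09, Csf1r at 0.88 (probes -0.80 to 1.32), Ccl2 at -1.59 and Itgam at -3.88 on one probe and 2.32 on another. Lymphocyte sums were 5.95 to 7.44 and 2.94 to 3.72, with Cd3d (1.78) and Cd79b (1.30) up and Cd4 (-2.48) and Nkg7 (-0.90, and 1.68 on its second probe) down. Smooth muscle genes rose for 5 of 8 (Cspg4 1.18, Des 1.04, Myh11 0.91, Tagln 0.79) and 1 fell, but under spike-in scaling the list's 2 calls were both falls (Tagln stood at -0.08), and without the muscle-rich cold arrays 1 and 2 Des stood at 0.35 (adjusted p = 0.0821) and the median went from 0.78 to 0.39. Of 10 nerve markers 4 rose (Cnp 1.65, Mbp 1.26 with 3 probes) and 3 fell (Th, of noradrenaline synthesis, -1.77, and Pmp22 -0.98, whose second probe gave 0.27). Of 7 red blood cell transcripts 1 rose (Hbb-bs 0.98) and 2 fell (Hbb-b2 -7.16, Slc4a1 -0.82), and the globin copies can share probes. Elane (-1.58) and Camp (-0.72, and -0.12, not called, on its second probe) fell and S100a9 (1.44) rose among 9 granulocyte and mast cell markers. Krt19 (2.78) and Lrrn4 (0.69) rose and Krt5 (-1.94) fell among 4 epithelial ones. The part of these cell types in the other results was not tested.

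The knockout mice give a second reading of the same temperatures on the same 4 slides, and the difference between the genotypes' cold effects is less tied to slide and scan day, since each slide holds both genotypes. In knockout mice 6101 of 14033 genes rose (43.5%) and 3230 fell (23.0%), and over 13096 genes the cold difference of the 2 genotypes had a Pearson r of 0.868, a description across genes that are not independent and whose arrays share slides. The cold effect differed between genotypes in limma's interaction test for many genes: it was higher in control mice for 1055 of 14033 (7.52%) and lower for 832 (5.93%). The split was 1330 and 439 with arrays centred on their medians and 3885 and 160 under spike-in scaling. Of 525 called genes with several probes, 191 agreed on every probe and 4 (0.762%) had probes past the threshold in both directions. Of the 24 genes with agreeing probes described above, 22 passed in the same direction in knockout mice. They were chosen for large changes in control mice, and the slides and scan days are shared. Over all genes tested in knockout mice, 43.5% rose and 23.0% fell. Flrt1 was not called in knockout mice (-0.09), and Bdh1 (-1.58) narrowly missed the threshold (adjusted p = 0.0533).

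Cholesterol synthesis was the list that differed most often between genotypes. In control mice 9 of 22 genes rose and 1 fell (15 rose and 1 fell without the cold arrays 1 and 2, and 1 rose and 7 fell under spike-in scaling), while in knockout mice 3 of 23 rose and 14 fell. The cold effect was higher in control mice for 16 of 23 genes, with a median difference of 1.53 against 0.02 over all genes, and for 16, 16 and 23 of 23 under quantile, median and spike-in scaling. With the arrays of each slide averaged, limma's interaction test called 37 genes in all (2371 at an unadjusted p under 0.05), and none of them was in this list. Srebf2, the sterol-sensing transcription factor, had levels of -2.55, -2.03, -2.50 and -2.46 at room temperature and -1.33, -1.23, -0.83 and -0.73 in the cold in control mice, and rose by 1.36, against 0.23 in knockout mice (difference 1.13 ± 0.23, adjusted p = 0.00799). Pmvk, of the mevalonate pathway, rose by 1.16 against -0.39 (difference 1.55 ± 0.39, adjusted p = 0.0198), and Mvk by 1.24 against 0.33 (difference 0.91 ± 0.22, adjusted p = 0.0171). For Srebf2, Pmvk and Mvk both probes agreed in the difference as well. Fdft1 rose by 1.91 in control mice, with its other probe at -0.63, and its difference of 0.61 was not called (adjusted p = 0.197).

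**Figure D5:**
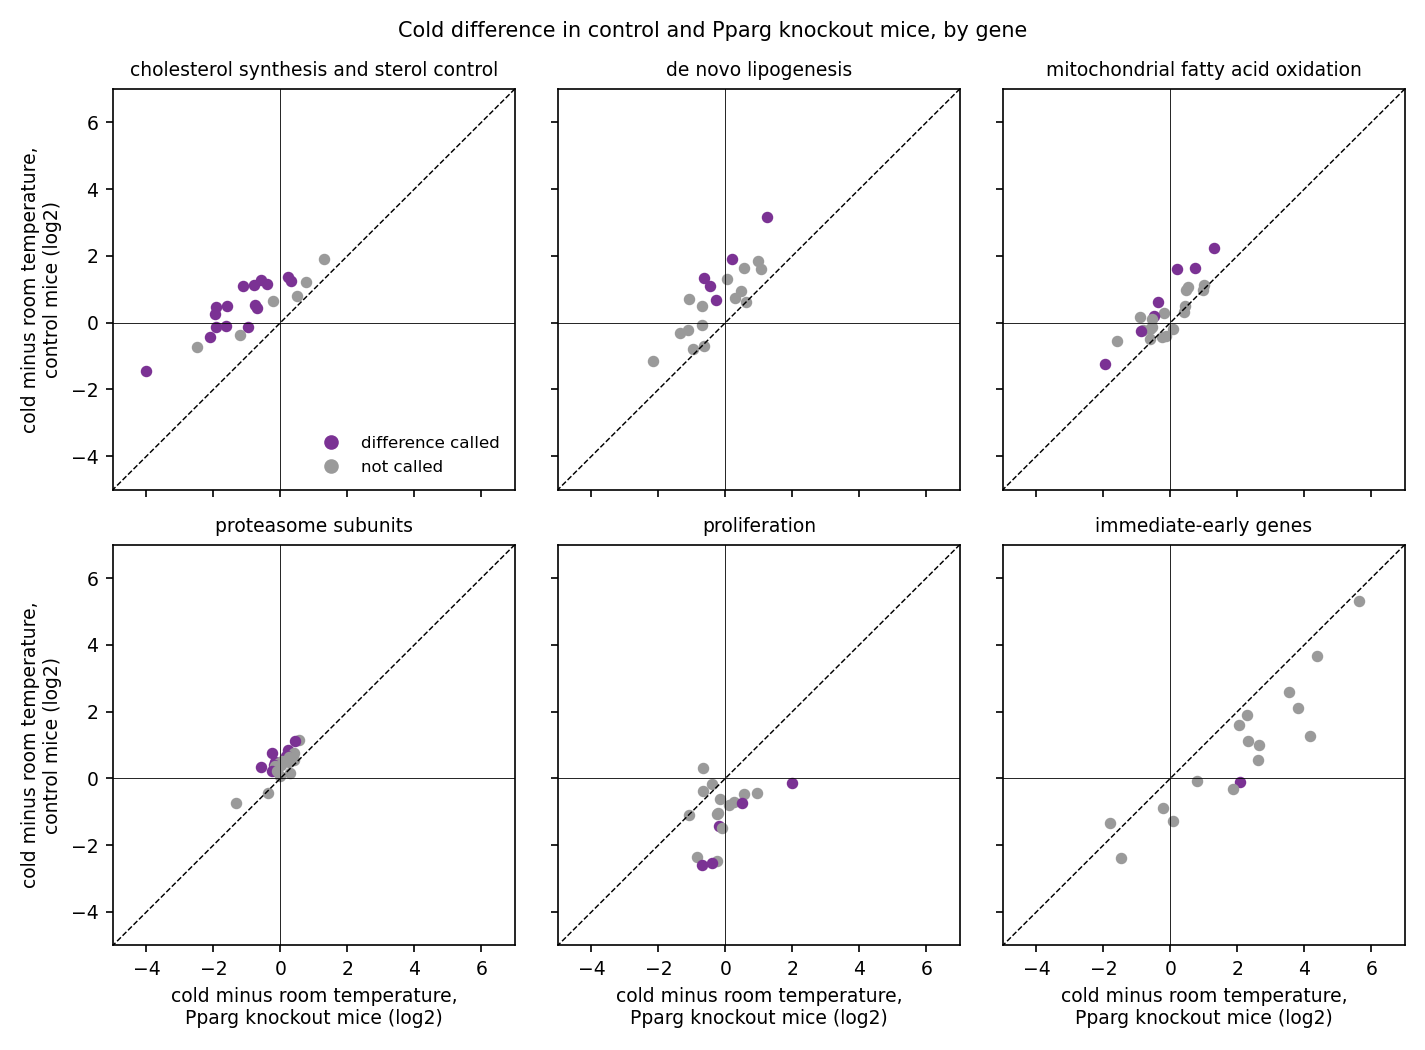
Cold minus room temperature in knockout mice (horizontal) against control mice (vertical), log2, for members of 6 gene lists, with the diagonal of equal change dashed and genes called for the difference in purple. The called cholesterol synthesis genes, such as Srebf2 (1.36 against 0.23), lie above the diagonal and the called proliferation genes, such as Mki67 (-2.59 against -0.69), below it.

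Other metabolic lists leaned the same way, with fewer members called: 5 of 20 lipogenesis genes, 7 of 24 fatty acid oxidation genes, 5 of 16 lipolysis genes and 9 of 26 proteasome genes were higher in control mice, against 7.52% of all genes. Without the cold control arrays 1 and 2 the lipogenesis count was 13, and with the arrays of each slide averaged no member of these lists was among the 37 genes called. Pcx rose by 1.83 in control and 0.43 in knockout mice (difference 1.39 ± 0.19, adjusted p = 0.00062), Pygb by 2.58 and 0.82 (1.76 ± 0.24, adjusted p = 0.000608), Hadha by 1.61 and 0.19 (1.42 ± 0.31, adjusted p = 0.00998) and Lipe by 1.83 and 0.57 (1.25, adjusted p = 0.00799). Proliferation genes differed in the other direction for 5 of 20, with 3 of 20 under spike-in scaling. Mki67 fell by 2.59 in control mice against 0.69, not called, in knockout mice (difference -1.90 ± 0.50, adjusted p = 0.0239, both probes agreeing). Ucp1 fell by about 0.97 in both genotypes, with a difference of 0.00 (adjusted p = 0.997), and for Elovl3 (0.60), Gk (0.17) and Cirbp (0.35) no difference was called either.

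The genes with large differences in favour of control mice included Flrt1, Golga7b, Ptgs1 and Nap1l5. Flrt1 had means of -3.11 ± 0.98 and 1.76 ± 0.84 (SD, n = 4) in control mice at room temperature and in the cold, against -1.91 ± 0.54 and -2.0 ± 0.75 in knockout mice, a difference of 4.95 ± 0.73 (adjusted p = 0.00101) that 3 probes shared (3.99 to 4.95). Ptgs1, a cyclooxygenase, had means of -0.67 and -0.13 in control mice and of 5.41 and 2.58 in knockout mice, so its difference of 3.37 ± 0.40 (adjusted p = 0.000255) came with a fall from a high level in the knockout. Nap1l5 was not called in control mice on the named probe (0.36), but its second probe rose there by 2.12. It fell by 2.82 in knockout mice on the named probe, and the difference between genotypes was 3.18 and 2.97 on the 2 probes. Golga7b gave 3.83 on one probe and 0.50 on the other, and its cold effect in control mice differed in sign between them (2.57 and -4.33).

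In the other direction Clic6, Glod5, Dynlrb2, Sult1e1 and Scn4b had the lower cold effect in control mice, with fitted differences of -7.03 to -5.10 that rest in part on signals near background. Clic6, a chloride channel protein, was not well above background in control mice at either temperature or in knockout mice at room temperature, and had a mean of 0.35 ± 0.68 (SD, n = 4) in knockout mice in the cold. Sult1e1, the estrogen sulfotransferase, had means of 1.95 and 5.95 in knockout mice and -3.72 and -4.97 in control mice, where it was well above background on 2 and 1 of 4 arrays. Glod5 fell by 3.11 in control mice with overlapping groups and rose by 3.04 in knockout mice (difference -6.16 ± 0.93, adjusted p = 0.00117). Scn4b was near its room temperature level on the cold control arrays 1 and 2 and low on arrays 3 and 4, so its difference of -5.10 ± 1.32 rested on unequal arrays. Each of these 5 genes has 1 tested probe.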

How the data were processed

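RNA of each sample was labelled with Cy3 from 200 ng (Low Input Quick Amp kit) and hybridised to a one-colour Agilent mouse array, per the labels. The deposited files hold, per the file headers, spot intensity from Agilent Feature Extraction 10.7.3.1, background-subtracted and not normalized between arrays. Of 39429 probes 27234 (69.1%) name a gene, 20659 in all, 5476 of them by several probes; the values printed are of those. From the deposited intensity, log2 was taken and each array's 75th percentile subtracted (R 4.3.3). Genes were tested where the probe was well above background on at least 4 arrays, with limma 3.58.1 (lmFit, eBayes, Benjamini-Hochberg over all genes, 0.05), over the 8 arrays; the difference between genotypes was fitted over 16. A probe fit over all probes gave the agreement. "At least N-fold" sets the bright group's mean against, per array, the higher of the lowest detected signal and the dim probe's own signal. Exact permutation p-values were two-sided. The fit was also tested on simulated data of 13124 genes with independent noise. Changes of 0.5, 1 and 2 on the log2 scale were given to 50, 100 and 50 genes, and 16%, 70% and 90% were recovered. Of the 133 calls 10 were false. The simulation had few changed genes and no slide effect, while the real fit called 67.4% of genes, so these rates do not carry over to it. The number of arrays limits the precision. Alternatives covered background, scaling, filter, probe choice, slide, pairing and left-out arrays. The spike-in scaling, normexp on the median signals and the fit without the cold arrays 1 and 2 were chosen after seeing the data. Promoters were searched with Python 3.11.15.

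The named genes are 10 core genes, the 12 largest rises and falls with agreeing, non-overlapping probes, the 5 largest of each sign with 1 probe, up to 4 called members of each list and the 5 largest interaction effects of each sign; the others were chosen after their values were seen. The members and lists were chosen with earlier results of these data known. Some genes that this rule names are not reported here.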

Additional observations from a re-analysis of the deposited data

Results flagged for a closer look

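The check covered 380 groups of 4 arrays, one for each named gene and temperature. About 1 in 20 such groups would be expected to have an array far from the other 3 by chance. Genes not reported here count in the 380 but are left out below, so no share is given. Among the reported genes, 22 groups had such an array. On the cold arrays these were Fgf21 on array 1 (-4.16), Mrps14 on array 2 (-5.37), Bpnt1 on array 4 (-1.87), Pygb on array 1 (1.62), Psmc1 on array 4 (6.93), Nfil3 on array 1 (-0.66), Ube2c on array 2 (-2.60), Lox on array 4 (-1.49) and Pmp22 on array 4 (1.59). On the room temperature arrays they were Recql4 (-3.19), Cpt2 (6.28), Cox8a (9.16), Srebf2 (-2.03), Serpina3n (-3.88) and Tagln (2.28) on array 2, Polg (0.22), Pi16 (2.80), Pmp22 (2.64) and S100a9 (-2.46) on array 1, Ddit3 (0.76) and Nfil3 (1.91) on array 3, and Ppm1k (-0.08) on array 4.

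The cold effect differed between control and knockout mice, by the interaction test, for Flrt1 (4.95), Golga7b (3.83), Ptgs1 (3.37), Nap1l5 (3.18), Clic6 (-7.03), Glod5 (-6.16), Dynlrb2 (-5.43), Sult1e1 (-5.25) and Scn4b (-5.10), each as control minus knockout.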

How the results depend on the processing

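The count of called genes, 8851, was 8173 with slide as a random block, 7020 with the arrays of a slide averaged, 8584 with a replicate block and 8063 to 8577 without any 1 array; agreeing genes numbered 972 to 1025, list members called 344 to 380 and core genes called 6 to 8 without 1 array. Centred on the median 1976 genes fell, and under spike-in scaling 1277 rose and 6252 fell. The replicate numbers do not pair the arrays: same-numbered arrays had residual correlations of -0.04, -0.02, 0.11 and -0.20. Within a group, residual correlations were -0.21 to 0.32 for arrays of the same slide and -0.74 to -0.36 for arrays of different slides. Of the named genes 11 reversed under spike-in scaling: Rbm3 (-0.15), Nrg4 (-0.0064), Hilpda (-0.25), Cox8a (-0.43), Phb2 (-0.48), Psmc3 (-0.35), Psmb1 (-0.013), Lox (-0.065), Tagln (-0.078), Lrrn4 (-0.18) and Ptgs1 (-0.33), a shift that the alternative's own construction gives. Another 37 kept their direction there but lost their call. Among them were Bhlhe41 (0.06), Thra (0.21), C3 (0.26), Gys1 (0.31), Pfkfb3 (0.33), Gamt (0.34), Polg (0.49) and Crtc2 (0.51). Nkg7 was 0.39 as a mean of its probes. Golga7b reversed where another of its probes was taken or averaged in: -1.82 with normexp, -4.16 with quantile scaling, -0.88 as a mean of probes, -4.46 to 2.93 without any 1 array and -4.48 without the cold arrays 1 and 2, and its difference between genotypes was -0.63 with normexp. The genes called for that difference, 1055 higher and 832 lower in control mice, became 576 with normexp on the median signals, 37 with the arrays of a slide averaged (2371 at an unadjusted p under 0.05), 4045 under spike-in scaling, 2740 with slide as a fixed block, 1905 with a replicate block and 1246 to 2212 without 1 array, the lowest without the first room temperature knockout array; the cause was not tested beyond the fewer samples of the averaged fit. Dim probes, not well above background in a group, carry bounds only.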
